A study of Homo sapiens with 2 samples.

Results

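TLE3 and UACA lie next to each other on the long arm of human chromosome 15 (band 15q23), and the region that holds them was among the densest in binding sites of oestrogen receptor α (ERα) in T47D breast cancer cells. The region was defined as positions 70000000 to 71150000 of chromosome 15 in the hg19 build, and it holds 32 of the 12688 peaks in the deposited list, each counted by its centre. It was selected on this peak count, so the count and density of its peaks are given as a description, with no test. The study compared 1 chromatin immunoprecipitation library with 1 input library, both from T47D, an established ERα-positive line. Both came from cells held without steroids for 48 h and then exposed to 17β-estradiol at 10 nM for 45 min. The antibody was H-20 against ERα, and the input DNA went through no antibody step. No library without estradiol was used here, so occupancy under hormone is described and no response to it. With 1 library of each kind no peak has a replicate error, the read depth is unknown, and sites scoring under 50, the lowest score in the list, were not listed.

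ERα is a nuclear receptor that, once it binds oestrogen, attaches to DNA at response elements and recruits coactivators or corepressors. In breast cancer cells most of its sites lie away from gene starts, often where the pioneer factor FOXA1 has opened the chromatin. TLE3 encodes a corepressor of the Groucho family, which binds no DNA itself and is brought to genes by other factors, FOXA1 and the Wnt-responsive TCF factors among them. UACA encodes a protein with ankyrin repeats and a long coiled coil, also called Nucling, that has been studied in apoptosis. Both genes are transcribed from the minus strand, so the start of each is its higher coordinate and upstream means towards higher positions. In hg19 TLE3 spans 70340130 to 70390256 (50.1 kb) and UACA 70946893 to 71055932 (109 kb), with 557 kb between them. In the RefSeq gene table of GRCh38, used for names and order alone, 9 long non-coding RNA genes, SALRNA2, SALRNA3, LINC02204 and LINC02205 among them, and 1 pseudogene lie between TLE3 and UACA, and no protein-coding gene does. The microRNA gene MIR629 lies inside TLE3. The nearest protein-coding neighbours are RPLP1 beyond the end of TLE3 and LARP6 beyond the start of UACA.

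The starts of the 2 genes are shown first, because ERα peaks were listed a few kb inside TLE3 and none near UACA. The RefSeq promoter table (GRCh38.p14) holds both genes, with 3 starts for TLE3 and 1 for UACA. The 250 bases before a start are printed 5′ to 3′ on the minus strand. Capitals mark a match to GGTCA, 1 arm of the palindromic oestrogen response element, or to GGGCGG, a GC box, on either strand. The TLE3 sequences are at chr15:70097918-70098167 for start 1 and chr15:70094790-70095039 for start 3, and that of UACA is at chr15:70763559-70763808.
TLE3, start 1: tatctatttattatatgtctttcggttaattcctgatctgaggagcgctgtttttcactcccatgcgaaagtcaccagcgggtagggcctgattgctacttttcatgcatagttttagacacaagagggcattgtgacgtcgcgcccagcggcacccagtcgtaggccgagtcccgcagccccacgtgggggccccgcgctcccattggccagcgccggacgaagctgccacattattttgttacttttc
TLE3, start 3: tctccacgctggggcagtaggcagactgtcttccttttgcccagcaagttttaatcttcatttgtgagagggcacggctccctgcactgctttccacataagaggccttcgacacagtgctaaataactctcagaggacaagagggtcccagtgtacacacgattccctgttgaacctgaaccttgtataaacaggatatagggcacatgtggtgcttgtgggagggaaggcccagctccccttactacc
UACA: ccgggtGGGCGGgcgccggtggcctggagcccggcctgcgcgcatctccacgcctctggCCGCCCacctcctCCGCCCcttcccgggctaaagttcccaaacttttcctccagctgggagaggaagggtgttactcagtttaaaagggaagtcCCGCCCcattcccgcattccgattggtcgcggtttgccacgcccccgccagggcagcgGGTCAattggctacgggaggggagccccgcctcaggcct

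The letters of a full response element, GGTCA and TGACC with any 3 bases between them, were in none of these sequences, nor in that of start 2 of TLE3. That full element contains the single arm, and 0.0570% of the 35116 promoters in the table, each 300 bases long with 50 bases after the start, hold it. UACA had 1 single arm, 39 bases before its start, and 4 GC boxes, whereas starts 1 and 3 of TLE3 had neither and start 2 had 2 GC boxes. A single arm was present in 37.4% of all promoters and a GC box in 45.0%. Shares of all promoters are for 300 bases, whereas the matches of TLE3 and UACA are given for the 250 bases before each start. The forkhead letters TGTTTAC, present in 3.42% of promoters, were in none of the 4. These matches describe letters in a short window and not binding. The sequences under the peaks themselves were not analysed here.

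The 32 peaks were spread unevenly over the region. Between TLE3 and UACA lay 19, or 59.4% of them, inside TLE3 lay 3, and beyond the end of TLE3 lay 10. Inside UACA there was 0, and in the 94.1 kb from its start to the edge of the region there was also 0. The density was 3.41 peaks per 100 kb between the genes (exact Poisson 95% interval 2.06 to 5.33), 5.98 in TLE3 (1.23 to 17.5) and 2.94 beyond its end (1.41 to 5.41). The intervals are wide, the more so with 3 peaks in TLE3, and no difference between the 3 segments was tested. Only counting error is in these intervals, and peaks in groups are not independent of one another. All 3 densities were several times the mean of 0.417 per 100 kb over chromosomes 1 to 22 and X.

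**Figure D1:**
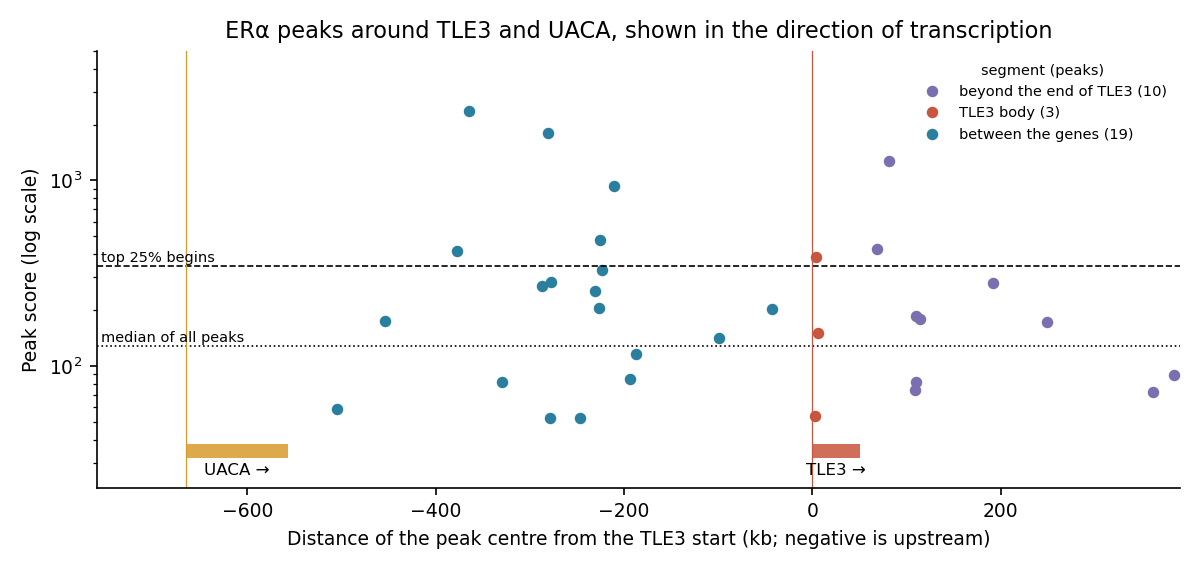
Each point is 1 ERα peak, placed by the distance of its centre from the TLE3 start (kb, in the direction of transcription, negative upstream) and by the authors' peak score on a log axis. Coloured boxes are the gene bodies, vertical lines the 2 gene starts, and horizontal lines the median and the top 25% of the whole list; the 19 peaks between the genes include the 2 highest scores, and no point lies on UACA or upstream of it.

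With 50 kb added on either side of each gene, the 2 surroundings differed in their counts. The surroundings of TLE3 held 6 peaks, or 3.997 per 100 kb (1.47 to 8.70), and those of UACA held 0 in 209 kb. The stretch left between them held 18 peaks, or 3.94 per 100 kb (2.34 to 6.23), a density close to that around TLE3. At the mean density of the list, the surroundings of UACA would hold 0.871 peaks and those of TLE3 0.625. With a mean under 1 peak, a count of 0 around UACA could not show a deficit. The 6 around TLE3 lie in a region selected on its peak count, so their excess over that mean is a description. The count of 0 depends on the margin: the last peak of the region, at 70895404 to 70895834 with a score of 58.53, has its centre 1274 bp outside it, and with 90 kb on either side the count was 1.

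**Figure D2:**
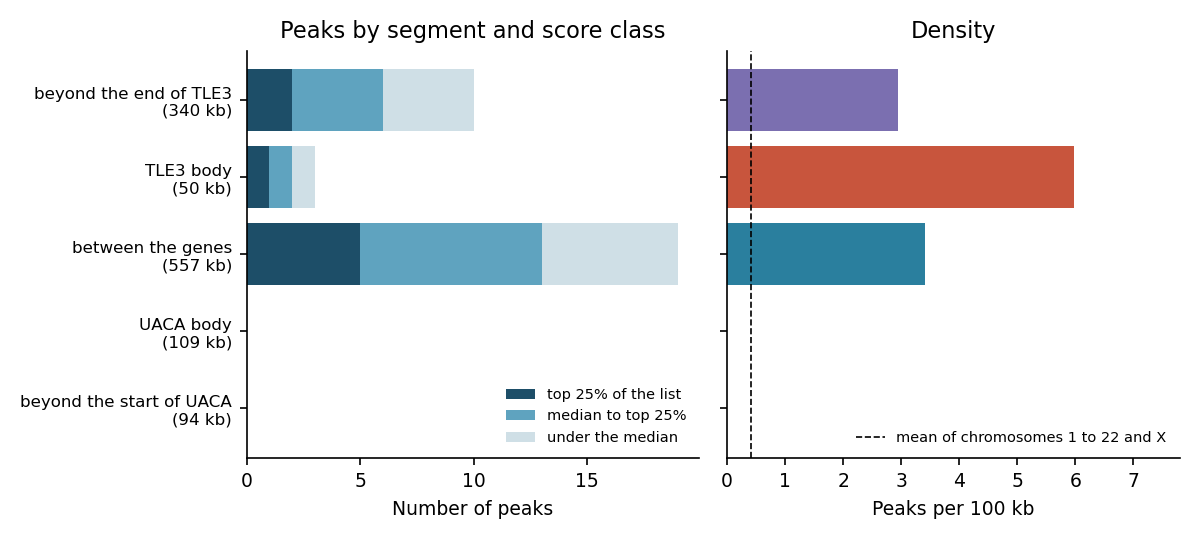
Left, the number of peaks in each of the 5 segments (length in kb), divided by score class within the whole list; right, peaks per 100 kb, with a dashed line at the mean of chromosomes 1 to 22 and X. The segment between the genes has the most peaks (19), the TLE3 body the highest density (5.98 per 100 kb from 3 peaks), and the UACA body and the segment beyond its start have 0.

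The score is the authors' own value for each peak, on a scale that is not stated, and it serves only to rank peaks within the list. In the region it ran from 52.16 to 2358.65 with a median of 182.21, against 128.265 in the whole list. Of the 32 peaks, 21 (65.6%, Wilson 95% interval 48.3 to 79.6%) scored at or above that list median, which 50% of all peaks do by construction. The interval includes 50%, but it treats neighbouring peaks of 1 library as independent. A difference from the list is thus neither shown nor excluded by this share. In the top 25% of the list, which holds 25% of all peaks, there were 8 (25%, 13.3 to 42.1%). At the low end, 10 of the 32 peaks scored under 100. The highest of these, 88.92, had 36.1% of the list below it, so at least that share of all peaks also scored under 100. Higher scores came with wider peaks here as in the list. Widths ran from 370 to 1326 bp, and width and score had a Spearman correlation of 0.594 over the 32 peaks and of 0.628 over all 12688, both descriptions of peaks from 1 library.

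Inside TLE3 the 3 peaks stood together near its start. The closest to the start, at 70387166 to 70387613, scored 53.44 and lay 2643 to 3090 bp downstream of it. It was among the weakest of the list, with 5.93% of peaks scoring lower. The middle peak, at 70385493 to 70386348, scored 384.33 and had its centre 4.34 kb downstream. The third, at 70384170 to 70384691, scored 150.82 with its centre 5.83 kb downstream. The rest of this gene of 50.1 kb had no listed peak. In GRCh38 start 3 lies 3128 bases downstream of start 1, and the 250 bases printed for it run from 2878 to 3127 bases inside. Positions were not carried between builds, so whether the weakest of the 3 peaks covers that sequence was not determined.

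No peak centre lay within 1 kb of the hg19 start of either gene, taken as the higher end of its span. Within 10 kb of the TLE3 start there were 3 peaks, all downstream, and 0 upstream. The first peak upstream of TLE3 was at 70432775 to 70433320, with its centre 42.8 kb from the start and a score of 203.63. The start of UACA stood much farther from any peak. Its nearest peak upstream was 261 kb away, at 71316970 to 71317350 with a score of 57.32, outside the region. Downstream the nearest was 160 kb away, past the end of the gene, and this was the peak of score 58.53 named above. Distance does not show which gene a bound site acts on, if any. A single start was used for each gene here. Distances to starts 2 and 3 of TLE3, which lie inside the gene, were not measured. For UACA, the listed span in GRCh38 begins 15345 bases before the start whose promoter is printed.

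In the stretch between the genes 5 of the 19 peaks (26.3%) were in the top 25% of the list, a share near that of all peaks, and the 2 highest scores of the region were among them. The highest peak of the region, at 70754728 to 70756053, scored 2358.65 and was also the widest, at 1326 bp. It ranked 451 in the whole list and 13 among the 443 peaks of chromosome 15. Its centre was 365 kb upstream of the TLE3 start and 301 kb downstream of the UACA start. A peak of 414.87 followed 10876 bp further on, at 70766930 to 70767462. The second highest, at 70670250 to 70670861, scored 1802.50 and ranked 661, with its centre 280 kb upstream of TLE3. A lone peak at 70600494 to 70601032 scored 930.05 (rank 1443), with its centre 211 kb upstream.

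Within this stretch 15 of the 19 peaks fell in 190 kb, from 70576984 to 70767462, a block noticed after the peaks had been seen. It starts 187 kb upstream of TLE3 and ends 179 kb from the end of UACA. Of these 15 peaks, 5 (33.3%) were in the top 25% of the list, and their median score was 268.62. The edges of the block were set by its own peaks, so its density is not compared with other windows. The other 4 peaks of the stretch were scattered on both sides of the block and scored 58.53 to 203.63. The lowest score of the region, 52.16, was also inside the block, at 70636971 to 70637345. The block thus held both strong and barely listed peaks.

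Beyond the end of TLE3, 2 of the 10 peaks were in the top 25% of the list and 6 were at or above its median. The higher, at 70308404 to 70309069, scored 1277.57 and ranked 1052 in the list. Its centre was 81.5 kb from the TLE3 start, past the end of the gene. A peak at 70321542 to 70322118 scored 427.65 and lay between it and TLE3, 68.4 kb from the start. The other 8 peaks of this segment scored 72.58 to 279.99, the lowest at 70028551 to 70028957, and none was in the top 25%. With the 2 high peaks close to the gene, 3 of the 6 peaks in the TLE3 surroundings were in the top 25%, against 0 of the 8 farther out. This contrast was not tested and depends on the margin of 50 kb. With 90 kb on either side, the surroundings held 10 peaks. They then took in the group from 70275352 to 70281583, which scored 185.60 at most.

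Peaks also stood in groups. Another peak centre lay within 10 kb for 17 of the 32 (53.1%, Wilson 95% interval 36.5 to 69.1%), against 41.4% in the list (12647 peaks of chromosomes 1 to 22 and X). The interval includes the share of the list, although the region is 6.68 times as dense as the mean of those chromosomes. This interval too treats neighbouring peaks as independent. Joining peaks whose edges lay within 10 kb left 20 groups, of which 15 were single peaks and 4 held 3 peaks or more, with 15 peaks among them. In the whole list 720 of 9292 groups (7.75%) held 3 peaks or more, a smaller share than the 4 of 20 here. The region was selected on its peak count, and crowded peaks join more readily. That larger share is therefore a description and not a separate trait of the region. No group of the region held more than 4 peaks, whereas the largest in the list held 15. Separate binding sites and 1 wide bound region cut into several peaks cannot be told apart in a peak list.

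The 4 groups differed in how their scores were divided. The TLE3 group of 3 is described above. Farthest upstream, from 70667313 to 70677850, 1 peak dominated: next to 1802.50 the others scored 284.83, 52.61 and 268.62. From 70613325 to 70620818 the 4 peaks were nearer in score, at 329.19, 479.45, 205.29 and 254.06 in order of position, and all 4 were above the list median. The highest of them was at 70615280 to 70615834. Beyond the end of TLE3, from 70275352 to 70281583, the scores were low, at 178.82, 82.01, 185.60 and 74.06. In this last group the peaks at 70279590 to 70280062 and at 70280065 to 70280631 were 2 bp apart, and 7 of the 12624 spaces between neighbouring peaks on chromosomes 1 to 22 and X were that short.

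**Figure D3:**
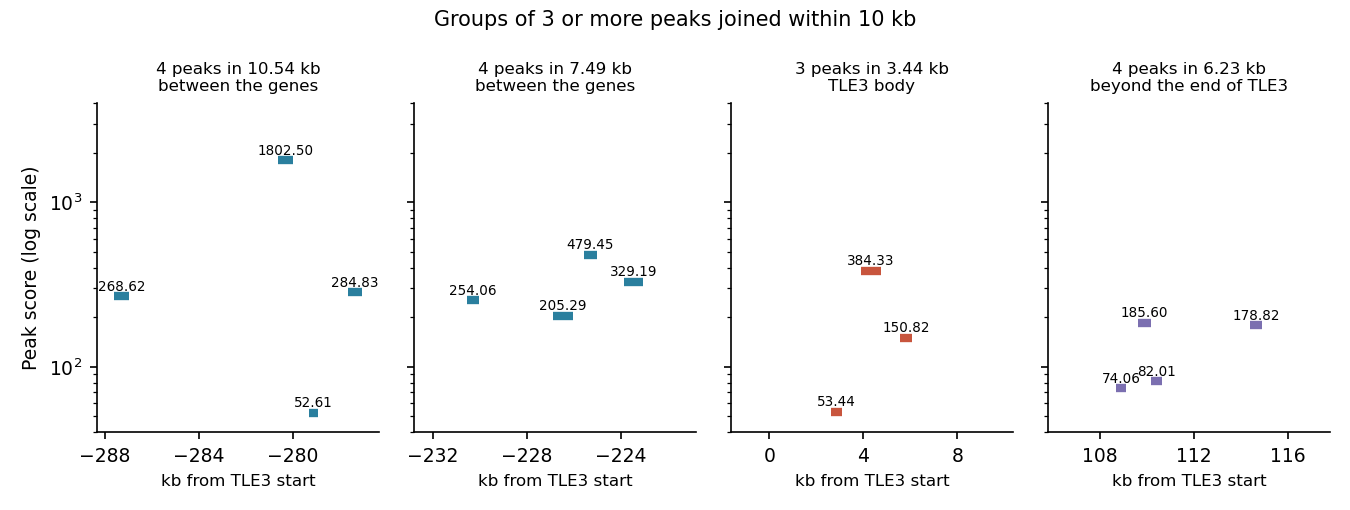
The 4 groups of 3 or more peaks, each in a frame of 12 kb, with position as distance from the TLE3 start (kb, negative upstream) and the peak score on a log axis. Each bar spans the width of 1 peak at the height of its score, which is printed above it; 1 peak of 1802.50 stands far above its neighbours in the first frame, while the highest peak of the other 3 frames scores 479.45.

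The space around UACA was part of a longer stretch without a listed peak. It ran from 70895835 to 71316969, or 421 kb, and took in all of UACA, the 51.1 kb beyond its end and 261 kb upstream of its start. On chromosome 15, 56 of 442 spaces between neighbouring peaks (12.7%) were at least that long, and over chromosomes 1 to 22 and X 1839 of 12624 (14.6%) were. A space of this length is thus common in the list. Inside the region, up to its last peak, the median space was 16.1 kb and the longest 112 kb, against a median of 53.6 kb in the list. Because the region was selected on its peak count, its shorter median space is only a description. The edges of the region fell among low-scoring peaks on both sides: the first peak inside, at 70006212 to 70006892, scored 88.92 and the last peak before it, at 69991435 to 69991831, scored 90.66, while on the other side the last inside scored 58.53 and the first outside 57.32.

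Set against windows of the same length of 1.15 Mb, the region was crowded, and its highest score was 2358.65. Of 2629 such windows on chromosomes 1 to 22 and X, 7 held 32 peaks or more, the median held 3 and the highest 65. The windows were tiled from the start of each chromosome, whereas the region was selected on its count. Its place among them is therefore a description. The region had 27.8 peaks per Mb, which is 6.44 times the density of chromosome 15 as a whole. With 1.12% of the length of chromosome 15 it holds 7.22% of its peaks. Each of those 7 windows had 1 to 5 peaks scoring 3100 or more, and the TLE3 and UACA region had 0. The highest score in each of the 7 was exactly 3100. In the list 269 of 12688 peaks reach this level, so a count of 0 among 32 peaks says little. Among the 76 windows with 20 peaks or more, 25 also had 0, so a crowded window without such a peak was not rare. This comparison was made after the scores had been seen. Copy number in T47D cells was not corrected here beyond the authors' use of the input, and its part in the count was not tested.

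**Figure D4:**
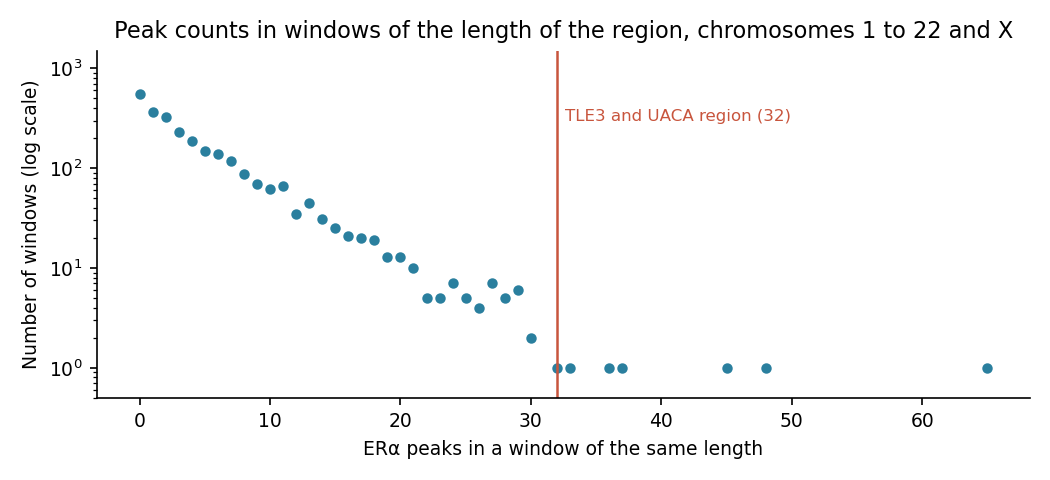
Each point gives the number of windows of 1.15 Mb on chromosomes 1 to 22 and X (log axis) that hold a given number of ERα peaks. The vertical line marks the 32 peaks of the TLE3 and UACA region, a count that 7 of 2629 windows reach.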

How the data were processed

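ERα occupancy was measured in 1 immunoprecipitation library and 1 input library of T47D cells. The deposited file is a list of peaks of the first over the second, with a name, a start, an end and a score for each. The peak names carry the MACS prefix, per the file. Bowtie 0.12.9, CASAVA 1.8, HOMER and the hg19 build are named, per the submitters' processing notes, without saying what each was used for. Which version and threshold of the caller applied is not stated there or in the labels. The authors' score was used as deposited, only to rank peaks. Starts were counted from 0 in the file, and 1 was added for printing.

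Peaks were assigned to segments by their centre, with the hg19 gene spans stated in the definition of the region. Groups were formed by joining peaks whose edges lay within 10 kb. Windows were tiled with hg19 chromosome lengths. Shares carry Wilson and densities exact Poisson 95% intervals. Counting, joining and tiling were tested on simulated data. The rule for named peaks took those in the top 25% of scores, the highest and lowest of each segment, the nearest on each side of a gene start, and the first, last and highest of each group of 3 or more. The region, the lists and the tests were chosen with earlier results of these data known. No hg19 sequence was used. Analyses ran in Python 3.11.15 with pandas 2.3.3, NumPy 2.4.6 and SciPy 1.17.1, and figures were drawn with matplotlib 3.10.9.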

Additional observations from a re-analysis of the deposited data

How the results depend on the processing

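Limiting the region's 32 peaks by score left 21 from the list median upwards and 8 in the top 25%, and the number of windows with as many peaks or more went from 7 to 53 in that top 25%. With 90 kb on either side, the surroundings of TLE3 held 10 peaks and those of UACA 1, the peak of score 58.53, which the wider margin takes in. Beyond the end of TLE3, 6 of 10 peaks were at or above the median score. The other alternatives left counts within 1.5 times, shares within their interval and distances within a peak's width: counting by overlap, merging within 500 bp, a margin of 25 kb, joining within 5 or 20 kb, shifted windows, the median of chromosome 15 and distances from the peak edge. For the UACA body only a score limit and merging were tried, and neither could have raised its count of 0. No paired analysis was possible because neither the ChIP nor the input has a replicate. The unknown depth limits which weak sites were listed, so a stretch without a peak is not shown to lack binding.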
